A study of Homo sapiens with 24 samples.

Results

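A set of 10 genes of cystine import, glutathione and the NRF2 response were read in RNA sequencing counts of bladder cancer cells that differ in CD44. They are the rows of the count table whose symbols equal SLC7A11, SLC3A2, GCLC, GCLM, GPX4, NQO1, TXNRD1, AKR1C1, AKR1C3 and HMOX1, which makes 10 of 35993 symbols. None was at 0 in any library (96 to 65489 counts), so all 10 passed the filter on low counts in every fit.

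SLC7A11 (also called xCT) and SLC3A2 pair to form the antiporter system xc-, which brings cystine into the cell in exchange for glutamate. Variant forms of CD44 have been described to hold SLC7A11 at the membrane. Cystine is reduced to cysteine, which the glutamate-cysteine ligase of GCLC (catalytic subunit) and GCLM (modifier subunit) joins to glutamate in the first step of glutathione synthesis, and GPX4 spends glutathione to remove lipid peroxides and hold off ferroptosis. The transcription factor NRF2, kept low by KEAP1, drives many of these genes together with the detoxifying enzymes NQO1, TXNRD1, AKR1C1, AKR1C3 and HMOX1.

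Transcripts were counted in 24 libraries of the human bladder cancer lines J82 and RT-112. For each line there were parental cells and 3 derived lines (CD44 Low, CD44 High, CD44v6) with 3 biological replicates each, which makes 8 groups. The names stand for low CD44, high CD44 and high CD44v6 (a splice form) at the receptor level. The labels give no drug treatment, and do not say how the derived lines were made or whether one is a single clone. Any other difference between the derived lines of a parental line can therefore not be told apart from CD44. Differences between J82 and RT-112 cannot be told apart from any batch that goes with the line.

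Libraries held 16752825 to 24419670 counts, and levels below are CPM, each library's counts scaled to a common total. CD44 itself, summed over its splice forms, followed the names: mean levels were 445 CPM in J82 parental, 279 in CD44 Low, 727 in CD44 High and 800 in CD44v6, and 317, 141, 420 and 448 CPM in the same RT-112 groups. CD44 High was 2.62-fold above CD44 Low in J82 and 3.06-fold in RT-112. A gene-level count does not separate v6 from other forms. Epithelial markers were present in both lines, but KRT5, UPK2 and UPK3A were at 0 in all J82 groups and UPK3A in all RT-112 groups, and the fibroblast collagen COL3A1 stood at 577 CPM in J82 parental cells. RNA was taken from whole cultures, so fewer cells of a type and less RNA per cell cannot be told apart.

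The sequences shown first are those on which reading the AKR1C genes depends. AKR1C1 and AKR1C2 share 98.0% of 972 coding bases (19 differ), while AKR1C1 and AKR1C3 share 91.5% (83 differ), so reads from long stretches of AKR1C1 and AKR1C2 can be split between the copies in a way that is not given in the sources used here. Coding bases 103 to 162, from the GENCODE 29 transcripts, are the 60-base window given here. It was picked for holding the most differences between AKR1C1 and AKR1C2, 10 of the 19, so it does not stand for the whole coding sequence. Capitals mark bases that differ from AKR1C1, which were 10 in AKR1C2 and 7 in AKR1C3.
AKR1C1: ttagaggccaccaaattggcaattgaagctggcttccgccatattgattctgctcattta
AKR1C2: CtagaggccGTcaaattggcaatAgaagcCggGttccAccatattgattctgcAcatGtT
AKR1C3: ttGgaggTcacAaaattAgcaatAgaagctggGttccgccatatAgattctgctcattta

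Promoter windows (250 bases before to 50 after the start, RefSeq, GRCh38.p14) were found for 8 of the 10 genes, and not for SLC7A11 or HMOX1. They were searched on both strands for TGANNNNGC, the core of the antioxidant response element that NRF2 with a small MAF protein is known to bind, and for its narrower form TGACNNNGC, every match of which is also a TGANNNNGC. All promoter windows of this length held the first in 41.8% and the second in 13.3% of 35116 cases, so a match is a description and not a site. The 4 windows shown are 1 each for the genes whose change from CD44 Low to CD44 High was called as differing between J82 and RT-112 below, and for AKR1C3, set beside AKR1C1. They run 5′ to 3′ on the gene's strand, and capitals mark a TGANNNNGC match on either strand.
AKR1C1, chr10:4963165-4963464, plus strand: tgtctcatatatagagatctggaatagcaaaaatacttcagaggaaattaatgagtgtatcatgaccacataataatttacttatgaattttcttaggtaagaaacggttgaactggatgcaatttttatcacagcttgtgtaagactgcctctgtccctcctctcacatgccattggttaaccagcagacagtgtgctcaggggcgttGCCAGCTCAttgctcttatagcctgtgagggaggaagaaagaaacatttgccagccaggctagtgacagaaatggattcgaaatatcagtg
AKR1C3, chr10:5094164-5094463, plus strand: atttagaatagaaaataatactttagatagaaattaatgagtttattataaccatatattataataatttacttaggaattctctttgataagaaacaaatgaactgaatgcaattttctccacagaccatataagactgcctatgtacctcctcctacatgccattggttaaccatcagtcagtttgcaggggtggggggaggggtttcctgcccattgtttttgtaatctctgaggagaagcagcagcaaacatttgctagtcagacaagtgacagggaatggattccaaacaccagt
NQO1, chr16:69726511-69726810, minus strand: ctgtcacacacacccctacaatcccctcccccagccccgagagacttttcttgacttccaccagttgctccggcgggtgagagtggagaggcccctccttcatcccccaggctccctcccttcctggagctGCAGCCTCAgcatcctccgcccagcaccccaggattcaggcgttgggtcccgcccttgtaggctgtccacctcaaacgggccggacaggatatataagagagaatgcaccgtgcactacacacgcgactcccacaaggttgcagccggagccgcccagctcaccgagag
TXNRD1, chr12:104286782-104287081, plus strand: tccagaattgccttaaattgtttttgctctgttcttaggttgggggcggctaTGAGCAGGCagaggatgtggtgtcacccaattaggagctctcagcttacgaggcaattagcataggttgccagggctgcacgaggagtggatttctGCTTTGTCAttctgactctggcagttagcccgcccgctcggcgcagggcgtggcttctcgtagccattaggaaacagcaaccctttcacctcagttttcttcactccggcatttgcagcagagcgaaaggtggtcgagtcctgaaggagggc
AKR1C1 and NQO1 each held 1 match of the wide form, on the opposite strand. The TXNRD1 window shown held TGAGCAGGC on its own strand and the narrow form TGACAAAGC on the opposite one, and a window at another TXNRD1 start, not shown, held the narrow forms TGACTTCGC and TGACGGAGC. Neither of the 2 AKR1C3 windows held a match, nor did the 3 of GPX4 or the 1 of GCLC. The narrow form was also found in the window of GCLM (TGACTAAGC) and in 1 of the 3 windows of SLC3A2 (TGACTCAGC).

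The aldo-keto reductase AKR1C3 and the heme oxygenase HMOX1 fell from CD44 Low to CD44 High cells in both lines, for AKR1C3 with no overlap of libraries and for HMOX1 with overlap in RT-112, where its call ended in 4 of 6 fits without 1 library. J82 CD44 High against CD44 Low called 5 of the 10 genes at an adjusted p under 0.05 (edgeR's quasi-likelihood test, adjusted over all genes), where 15.7% of all 15951 genes tested were called. AKR1C1 rose there (8.83% of all genes were called higher), and SLC7A11, TXNRD1, AKR1C3 and HMOX1 fell (6.90% lower). RT-112 CD44 High against CD44 Low also called 5 of 10, all lower (GPX4, NQO1, AKR1C1, AKR1C3 and HMOX1), where 16.0% of 15645 genes were called and 7.02% were lower. The median log2 fold change over the 10 genes was -0.25 in J82 and -0.35 in RT-112, beside -0.02 and 0.02 over all genes tested.

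CD44v6 against CD44 Low called 4 of 10 in J82 (9.58% of all genes), with AKR1C1 higher (6.18%) and TXNRD1, AKR1C3 and HMOX1 lower (3.40%). In RT-112 it called 6 of 10, all lower (16.0% of all genes called, 8.03% lower): SLC7A11, GPX4, NQO1, AKR1C1, AKR1C3 and HMOX1. These comparisons share the CD44 Low libraries with those of CD44 High, so their values stand side by side and are not separate evidence. Nothing was called between CD44v6 and CD44 High in the main edgeR fit, neither among the 10 genes nor among all genes (0 called, 0%), whichever the line. That comparison held at an unadjusted p under 0.05 2 of the 10 genes in each line, beside 1536 genes of all in J82 and 665 in RT-112, and DESeq2 called 74 and 2 genes with none of the 10 among them.

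Fewer of the 10 differed from parental cells. J82 CD44 Low against parental called 2 (AKR1C3 and HMOX1, both higher, with 5.34% of all genes called and 2.26% higher), J82 CD44 High called 1 (AKR1C1, higher, with 2.94% and 1.71%) and J82 CD44v6 called 1 (AKR1C1, higher, with 2.60% and 1.86%). RT-112 CD44 Low called 2 (NQO1 and AKR1C3, both higher, with 3.20% and 1.33%). In RT-112 neither CD44 High (0.511% of all genes) nor CD44v6 (0.614%) called any in the main edgeR fit or by DESeq2. At an unadjusted p under 0.05 there were 5 and 1 of the 10, beside 12.3% and 15.3% of all genes. SLC3A2, GCLC and GCLM were called in none of the 12 comparisons within a line.

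**Figure D1:**
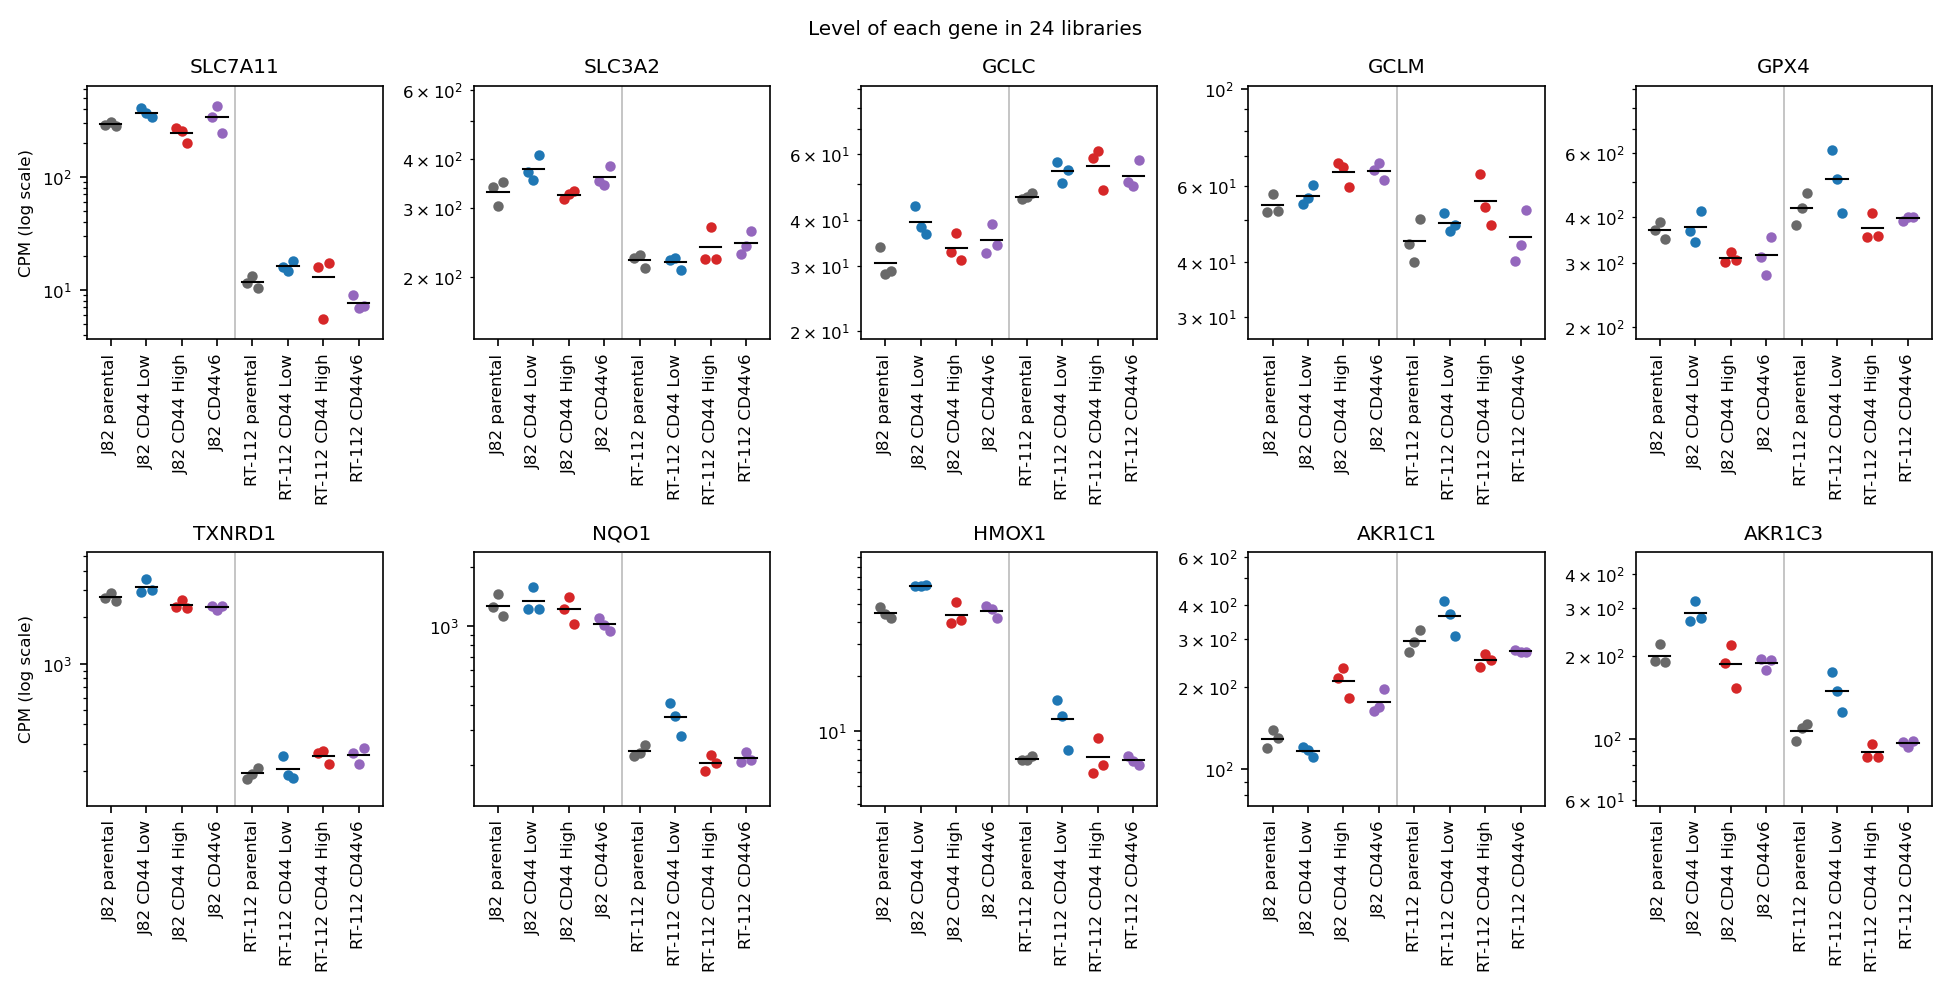
Level of each of the 10 genes in every library, in CPM on a log axis, with 3 points per group for the replicates and a bar for the group mean. Blue points (CD44 Low) lie highest for AKR1C3 and HMOX1 in J82 and for NQO1 and AKR1C3 in RT-112, and the lines stand far apart for SLC7A11 and TXNRD1.

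**Figure D2:**
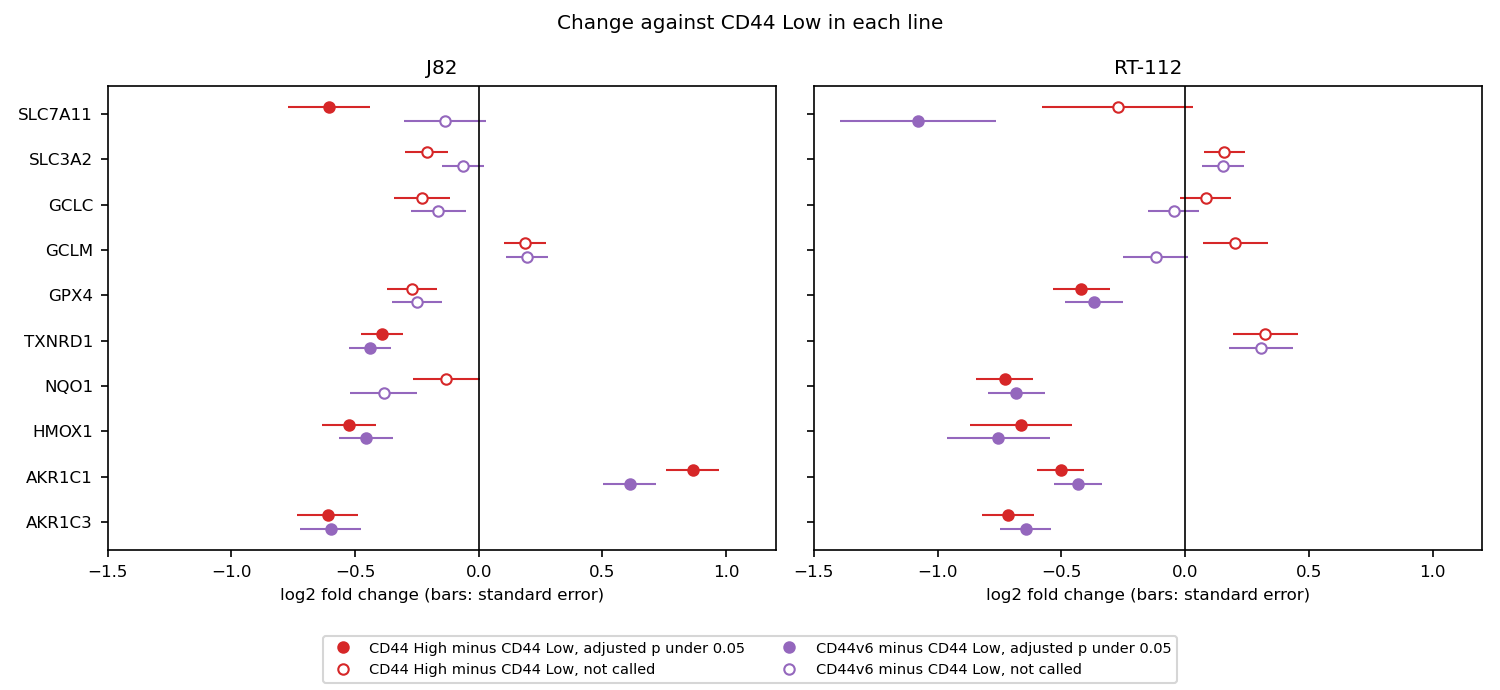
Log2 fold change of CD44 High (red) and CD44v6 (purple) against CD44 Low for each gene, J82 on the left and RT-112 on the right, with bars for the standard error and filled points for an adjusted p under 0.05. AKR1C1 lies right of 0 in J82 and left of 0 in RT-112, while AKR1C3 and HMOX1 lie left of 0 in both.

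Before the derived lines are taken one gene at a time, the parental cells give the starting levels. J82 parental against RT-112 parental called 9 of 10 genes, where 62.0% of all 17438 genes were called, 31.0% in each direction. Per kilobase of exon, TXNRD1 (535 CPM per kilobase), NQO1 (407) and GPX4 (300) led in J82, and GPX4 (345), SLC3A2 (83.3) and NQO1 (74.5) led in RT-112. SLC7A11 came last in RT-112 at 1.21 CPM per kilobase, beside 30.0 in J82.

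SLC7A11, the cystine-carrying chain of system xc-, read 284, 304 and 282 CPM in the 3 J82 parental libraries and 11.5, 13.1 and 10.4 in those of RT-112. That is 24.8-fold higher in J82 (log2 4.63 ± 0.28 SE, adjusted p = 3.55e-12). Its partner SLC3A2, the heavy chain that also serves other amino acid transporters, differed less, at 330 ± 24.1 (SD, n = 3) against 221 ± 8.52 CPM, a 1.49-fold difference (adjusted p = 4.73e-06). The median ratio of SLC7A11 to SLC3A2 counts was 0.839 in J82 parental libraries and 0.0512 in RT-112, without correction for length. TXNRD1, the thioredoxin reductase that keeps thioredoxin reduced, was 14.0-fold higher in J82 (2700 ± 156 against 192 ± 16.0 CPM). HMOX1 was 6.32-fold and NQO1, the quinone reductase, 5.46-fold higher in J82. AKR1C3 was 1.88-fold higher and GCLM 1.21-fold higher, while GCLC was 1.51-fold and AKR1C1 2.28-fold lower in J82. GPX4 was the only one of the 10 not called (369 ± 19.2 against 425 ± 43.5 CPM, adjusted p = 0.144, nominal 95% interval of the log2 difference -0.43 to 0.03). GCLM was called in 2 of the 6 fits that left out 1 parental library (adjusted p 0.0143 to 0.217). NFE2L2, which encodes NRF2, was the lower of the lines in J82 (77.6 against 111 CPM, log2 -0.51 ± 0.09 SE, adjusted p = 5.47e-05).

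Within J82, SLC7A11 was highest in CD44 Low and lowest in CD44 High. The CD44 Low libraries read 405, 365 and 337 CPM, and those of CD44 High 271, 255 and 198. No CD44 High library reached the CD44 Low range, and the fall was 1.52-fold (log2 -0.61 ± 0.17 SE, adjusted p = 0.0267). The call ended in 4 of the 6 fits that left out 1 library: without CD44 Low replicate 1 (adjusted p = 0.105) or replicate 2 (0.0593), and without CD44 High replicate 2 (0.0599) or replicate 3 (0.0998). CD44v6 libraries were spread over 337, 422 and 245 CPM and overlapped the parental, CD44 Low and CD44 High ranges. CD44v6 minus CD44 High was 0.47 ± 0.17 SE on the log2 scale (adjusted p = 0.477), so a higher level of the transporter transcript in CD44v6 than in CD44 High was not called.

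In RT-112, where SLC7A11 was scarce, CD44 Low read 15.9, 14.5 and 18.0 CPM (323 to 371 counts) and CD44v6 8.92, 6.89 and 7.19 (128 to 197 counts). The ranges do not overlap, and the level in CD44v6 was 2.11-fold lower (log2 -1.08 ± 0.31 SE, adjusted p = 0.0351). That call was kept in 0 of the 6 fits without 1 library (adjusted p 0.0543 to 0.114, log2 fold change -1.20 to -0.99). CD44 High held the widest spread of any group, with 16.0, 5.52 and 17.3 CPM. Replicate 2 of CD44 High alone lies under all CD44v6 libraries while the other libraries of that group lie above the parental ones. Without it, CD44v6 against CD44 High gave a log2 fold change of -1.15 (adjusted p = 0.0019) in place of -0.81 ± 0.32 SE (adjusted p = 1).

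Gene-wide medians by GC content and length moved with SLC7A11 in some libraries and not in others. Its exons are long (9645 bases, longer than 94.3% of genes measured) and poor in GC (35.4%). In RT-112 CD44 High replicate 2, where SLC7A11 stood 1.02 below the line's mean on the log2 scale, the median of the tenth of genes lowest in GC was -0.27. CD44 High replicates 1 and 3 had SLC7A11 at 0.49 and 0.61 and that median at 0.01 and 0.14. In the 3 CD44v6 libraries the median was -0.05, -0.12 and -0.24, beside 0.18, 0.08 and 0.15 in CD44 Low. In J82, the tenth of genes with the longest exons had a median of 0.23 in CD44 Low replicate 1 and 0.28 in CD44v6 replicate 2, the libraries highest for SLC7A11. Other libraries did not show this. J82 CD44v6 replicate 2, with SLC7A11 at 0.48, had the lowest low-GC median of its line (-0.08), and RT-112 parental replicate 3, with SLC7A11 at -0.12, had one of 0.13. The longest-exon median was 0.00 in RT-112 CD44 Low replicate 2 and in CD44v6 replicates 1 and 2, where SLC7A11 stood at 0.36, -0.34 and -0.71. The part of GC content and length in the SLC7A11 differences was not tested.

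**Figure D3:**
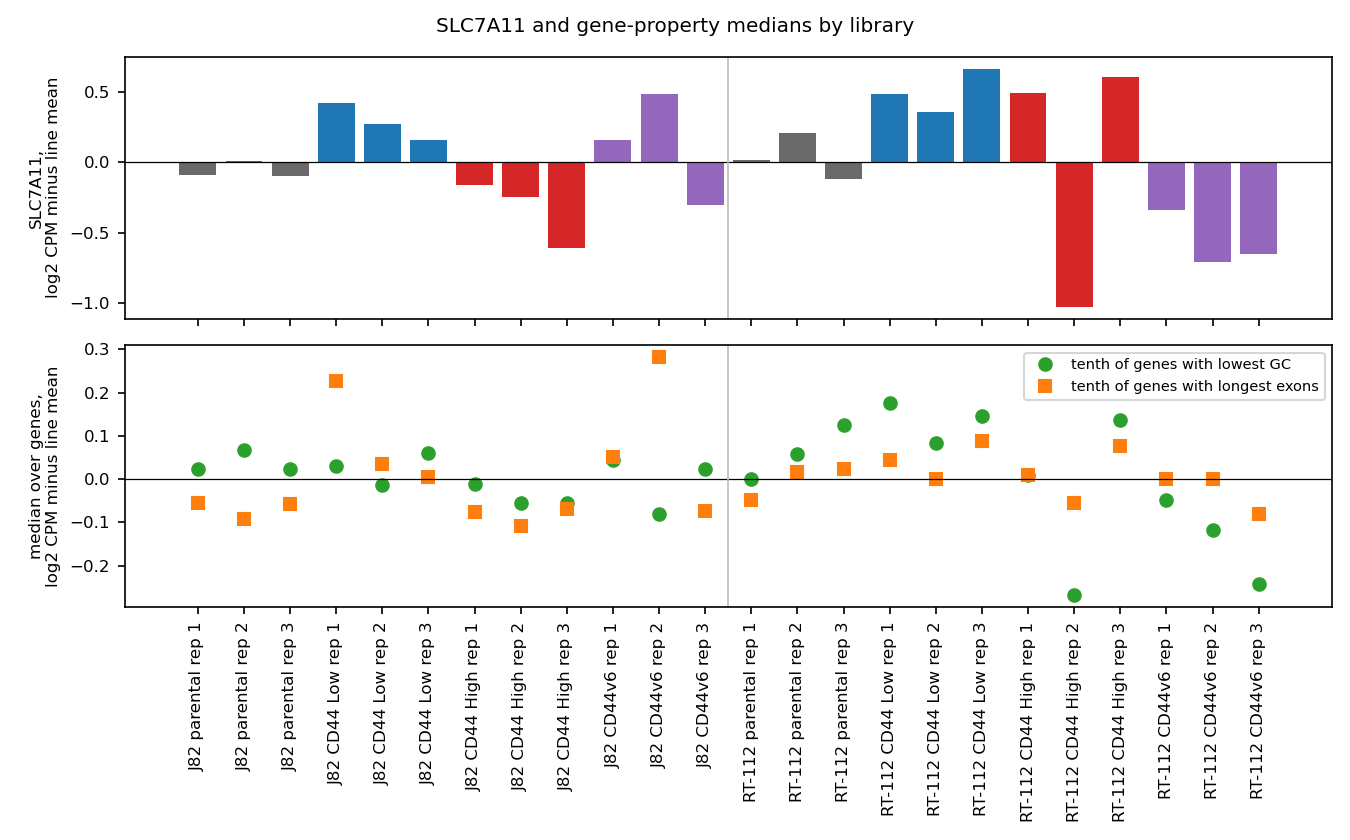
Top, log2 CPM of SLC7A11 minus its line mean in each of the 24 libraries, coloured by group. Bottom, the median of the same quantity over the tenth of genes with the lowest GC (circles) and the longest exons (squares), with RT-112 CD44 High replicate 2 lowest in the top panel at -1.02 and in the GC median at -0.27.

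Across the 24 libraries, each line centred on its own mean, SLC7A11 had the largest spread of the 10 genes (root-mean-square 0.44 on the log2 scale) and SLC3A2 the smallest (0.11). The 5 genes nearest to SLC7A11 in pattern, of 10310 genes whose log2 CPM averaged 3 or more, were RIF1, BRWD3, SMC5, APC and RGPD4, with a root-mean-square difference of 0.383 to 0.409 of SLC7A11's own. Their GC was 36.6% to 40.6%, beside 37.3% in GCLM, which was not among them. Their exons were at least as long as those of 75.7% (RGPD4) to 99.0% (RIF1) of genes measured. The nearest of the other 9 genes to SLC7A11 was AKR1C3, at 0.939. This measure also counts the size of changes, so a gene of small spread such as SLC3A2 could not come near SLC7A11. It does not show whether the 2 partners moved together.

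SLC3A2 was called in no comparison of the CD44 groups. J82 means were 330, 377, 324 and 360 CPM in parental, CD44 Low, CD44 High and CD44v6 cells, and RT-112 means 221, 218, 238 and 244 CPM. For CD44 High minus CD44 Low the J82 difference was -0.21 ± 0.09 SE (adjusted p = 0.115), and that of RT-112 0.16 ± 0.08 (adjusted p = 0.219). In order of level all J82 groups lay above all RT-112 groups, and neighbours within each line overlapped.

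The subunits of glutamate-cysteine ligase showed no called difference within either line. GCLC ranged from 28.5 to 43.6 CPM over the J82 libraries and from 45.3 to 61.1 over those of RT-112. Its widest contrast against parental cells was J82 CD44 Low, at 43.6, 38.1 and 36.5 CPM beside 33.7, 28.5 and 29.1. Those ranges do not overlap, but the log2 difference of 0.37 ± 0.11 SE had an adjusted p of 0.0801. GCLM read 67.7, 66.2 and 59.7 CPM in J82 CD44 High and 52.3, 57.4 and 52.5 in parental cells, a log2 difference of 0.26 ± 0.08 SE (adjusted p = 0.14). In count terms GCLC was 0.482 to 0.802 of GCLM in J82 and 0.916 to 1.25 of it in RT-112.

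GPX4, the lipid peroxide reductase, fell in RT-112 from CD44 Low to both other derived lines. CD44 Low libraries read 611, 511 and 411 CPM, CD44 High 354, 410 and 355, and CD44v6 392, 400 and 400. Every CD44 Low value lay above every value of those groups, though replicate 3 by little. CD44 High minus CD44 Low was -0.42 ± 0.12 SE (1.34-fold lower, adjusted p = 0.027), and CD44v6 minus CD44 Low -0.37 ± 0.12 (adjusted p = 0.0468). Without CD44 Low replicate 1, the highest library, the GPX4 differences were -0.28 (adjusted p = 0.119) and -0.23 (adjusted p = 0.199). The first call also ended without CD44 Low replicate 2 (0.0702), CD44 High replicate 1 (0.0895) or CD44 High replicate 3 (0.0545), and the second held only without CD44 Low replicate 3 (0.00839). In J82, GPX4 read 367, 343 and 417 CPM in CD44 Low and 302, 322 and 306 in CD44 High, without overlap, at -0.27 ± 0.10 SE (adjusted p = 0.0876, and 0.045 by DESeq2).

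TXNRD1 was lower in both CD44 High and CD44v6 than in CD44 Low cells of J82. J82 CD44 Low read 2942, 3538 and 3014 CPM, CD44 High 2329, 2589 and 2297, and CD44v6 2379, 2243 and 2359. The CD44 Low libraries were above all others in J82. CD44 High was lower than CD44 Low by 1.31-fold (log2 -0.39 ± 0.08 SE, adjusted p = 0.00765) and CD44v6 by 1.36-fold (-0.44 ± 0.08, adjusted p = 0.00529). Both calls were kept in all 6 fits without 1 library. In RT-112 CD44 Low read 249, 186 and 179 CPM and CD44 High 262, 270 and 220, with overlap, a log2 difference of 0.32 ± 0.13 SE (adjusted p = 0.108). Without CD44 Low replicate 1 that difference was 0.48 (adjusted p = 0.0309).

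NQO1, the quinone reductase often read as a gauge of NRF2, changed in RT-112. Its CD44 Low libraries read 410, 353 and 278 CPM, against 220, 228 and 251 in parental, 186, 224 and 203 in CD44 High, and 206, 233 and 212 in CD44v6 cells. All 3 CD44 Low libraries were above all 9 others of the line. CD44 High was 1.66-fold lower than CD44 Low (log2 -0.73 ± 0.12 SE, adjusted p = 0.00172) and CD44v6 1.61-fold lower (-0.68 ± 0.12, adjusted p = 0.00276). These were called in all 6 fits without 1 library. CD44 Low was 1.45-fold above parental (0.54 ± 0.12, adjusted p = 0.0244), a call that held only without CD44 Low replicate 3 (0.00423) and otherwise gave 0.0509 to 0.116. In J82 the NQO1 levels of CD44 Low and CD44 High overlapped, at 1216, 1573 and 1223 CPM and 1220, 1405 and 1024 (log2 -0.13 ± 0.14 SE, adjusted p = 0.564). J82 CD44v6 libraries read 1100, 1013 and 950 CPM, below every CD44 Low and parental library of the line. Their fall from CD44 Low was not called in the main fit but was with the replicate block (edgeR, log2 -0.37, adjusted p = 0.0251).

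HMOX1, which breaks heme into iron, biliverdin and carbon monoxide, was tightest in J82 CD44 Low, at 62.8, 62.3 and 63.8 CPM. Parental cells read 48.3, 44.2 and 41.9, CD44 High 39.2, 51.0 and 40.6, and CD44v6 48.8, 46.7 and 41.8. No other J82 library reached the CD44 Low values. CD44 High was 1.44-fold lower than CD44 Low (log2 -0.52 ± 0.11 SE, adjusted p = 0.00603), a call kept in all 6 fits without 1 library. CD44v6 was 1.37-fold lower (-0.46 ± 0.11, adjusted p = 0.0193), which ended without any one CD44 Low library (0.0536 to 0.0579) or CD44v6 replicate 3 (0.0704). CD44 Low against parental, at 0.49 ± 0.11 (adjusted p = 0.0219), was called in 1 of 6 such fits, with an adjusted p of 0.049 to 0.109.

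HMOX1 in RT-112 was low and uneven, with CD44 Low at 14.8, 12.2 and 7.86 CPM, parental at 6.97, 6.93 and 7.34, CD44 High at 5.88, 9.19 and 6.55, and CD44v6 at 7.34, 6.89 and 6.57. CD44 Low replicate 3 overlapped the CD44 High range, while replicates 1 and 2 were above every other library of the line. The log2 difference of CD44 High from CD44 Low was -0.66 ± 0.21 SE (adjusted p = 0.0463) and that of CD44v6 -0.75 ± 0.21 (adjusted p = 0.0282). Without CD44 Low replicate 1 they were -0.46 (adjusted p = 0.192) and -0.55 (adjusted p = 0.125). The first was kept in 2 of 6 fits without 1 library and also ended without CD44 Low replicate 2 (0.119) and CD44 High replicates 1 (0.167) and 3 (0.0905). The second held only without CD44 Low replicate 3 (0.0053). Of the RT-112 CD44 Low libraries replicate 1 was the highest and replicate 3 the lowest for each of GPX4, NQO1, AKR1C1, AKR1C3 and HMOX1. That order also held for TXNRD1 (249, 186 and 179 CPM), which was not called lower in this line, and for AKR1C2. It did not hold for SLC7A11, SLC3A2, GCLC or GCLM. Total counts had it too (24419670, 22520189 and 18514127), and their part was not tested.

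AKR1C3, an aldo-keto reductase that acts on steroids and prostaglandins, was highest in CD44 Low in both lines. J82 CD44 Low read 268, 318 and 275 CPM, parental 192, 221 and 190, CD44 High 189, 220 and 153, and CD44v6 195, 178 and 194. RT-112 CD44 Low read 175, 149 and 125 CPM, parental 97.8, 109 and 113, CD44 High 85.8, 96.0 and 85.7, and CD44v6 97.1, 93.6 and 98.4. In each line the CD44 Low libraries lay above all others. CD44 High was 1.53-fold lower than CD44 Low in J82 (log2 -0.61 ± 0.12 SE, adjusted p = 0.00504) and 1.64-fold lower in RT-112 (-0.72 ± 0.10, adjusted p = 0.00103). CD44v6 was lower by 1.51-fold (-0.60 ± 0.12, adjusted p = 0.00793) and 1.56-fold (-0.64 ± 0.10, adjusted p = 0.0021). All 4 calls of AKR1C3 were kept in all 6 fits without 1 library. Over parental cells CD44 Low stood 0.51 ± 0.12 higher for J82 (adjusted p = 0.0309) and 0.46 ± 0.10 higher for RT-112 (adjusted p = 0.0325). Each of those held in 1 of 6 such fits, in J82 without CD44 Low replicate 3 (0.0463) and in RT-112 without CD44 Low replicate 3 (0.0081), and otherwise gave 0.06 to 0.133 and 0.0643 to 0.146.

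AKR1C1, a close relative that reduces progesterone, parted from AKR1C3 in J82. Its J82 libraries read 119, 139 and 130 CPM in parental, 121, 117 and 110 in CD44 Low, 215, 234 and 182 in CD44 High, and 163, 169 and 197 in CD44v6 cells. Every CD44 High and CD44v6 library was above every parental and CD44 Low library. CD44 High was 1.82-fold above CD44 Low (log2 0.86 ± 0.11 SE, adjusted p = 0.000168) and 1.63-fold above parental (0.71 ± 0.11, adjusted p = 0.00416), and CD44v6 was 1.53-fold above CD44 Low (0.61 ± 0.11, adjusted p = 0.00282). These 3 calls were kept in all 6 fits without 1 library. CD44v6 against parental, at 0.45 ± 0.11 (adjusted p = 0.0469), was kept in 0 of 6 (adjusted p 0.0582 to 0.22).

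In RT-112, AKR1C1 followed AKR1C3, with 414, 369 and 306 CPM in CD44 Low, 269, 292 and 322 in parental, 237, 264 and 250 in CD44 High, and 273, 269 and 269 in CD44v6 cells. All CD44 Low libraries were above those of CD44 High and CD44v6, and replicate 3 alone lay within the parental range. CD44 High was 1.42-fold lower than CD44 Low (log2 -0.50 ± 0.10 SE, adjusted p = 0.00447) in all 6 fits without 1 library. CD44v6 was 1.35-fold lower (-0.43 ± 0.10, adjusted p = 0.0113), which ended without CD44 Low replicate 1 (-0.33, adjusted p = 0.051). AKR1C2, the near-identical copy, read 294, 257 and 229 CPM in RT-112 CD44 Low and 160, 194 and 188 in CD44 High (log2 -0.49 ± 0.09 SE, adjusted p = 0.00457). In J82 AKR1C2 read 29.6, 26.3 and 24.3 CPM in CD44 Low and 37.1, 29.9 and 29.6 in CD44 High, at 0.27 ± 0.12 SE (adjusted p = 0.135). With the shared coding bases shown above, the AKR1C1 and AKR1C2 values are uncertain as to how counts were split between them.

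The count ratio of AKR1C1 to AKR1C3 puts the parting in 1 number per library. Its median was 0.628 in J82 parental (0.620 to 0.688), 0.402 in CD44 Low (0.369 to 0.450), 1.14 in CD44 High (1.06 to 1.19) and 0.949 in CD44v6 (0.840 to 1.02). The CD44 Low range lay below and the CD44 High range above all other J82 groups. RT-112 medians were 2.76, 2.44, 2.76 and 2.81 in the same order, with CD44 Low (2.36 to 2.48) again below the rest.

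**Figure D4:**
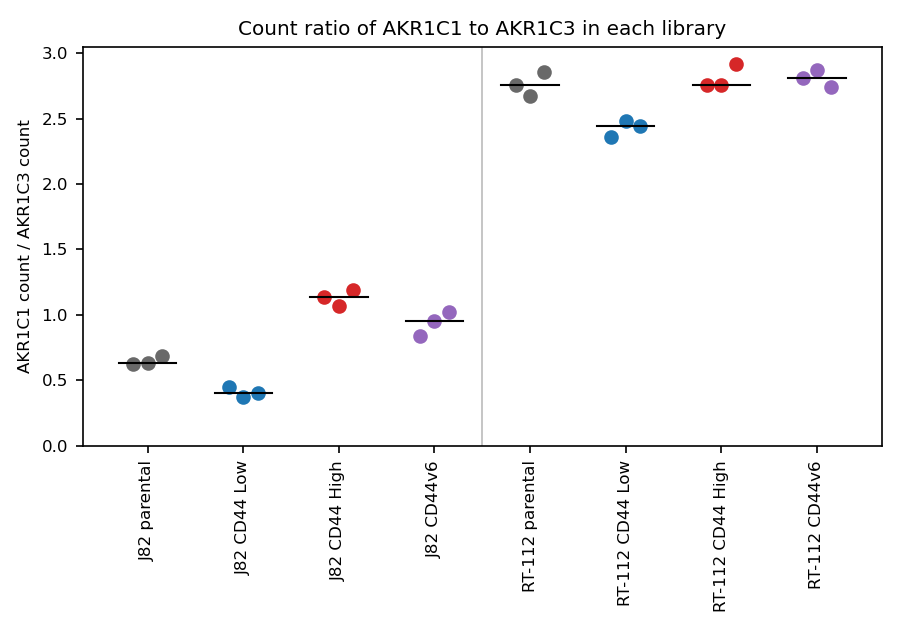
Count of AKR1C1 divided by count of AKR1C3 in each library, with 3 points per group and a bar for the median. In J82 the ratio runs from a median of 0.402 in CD44 Low to 1.14 in CD44 High, and in RT-112 all libraries lie between 2.36 and 2.92.

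The difference between the lines was tested as J82 change minus RT-112 change over all 24 libraries. For CD44 High against CD44 Low it was called for 3 of the 10 genes, where 10.7% of 17438 genes were called (6.24% with a positive and 4.42% with a negative difference). AKR1C1 differed by 1.40 ± 0.15 SE on the log2 scale (adjusted p = 3.91e-06), NQO1 by 0.63 ± 0.19 (adjusted p = 0.0413) and TXNRD1 by -0.69 ± 0.16 (adjusted p = 0.00937). For CD44 High against parental only AKR1C1 was called of the 10 (0.94 ± 0.15, adjusted p = 0.0088, with 0.241% of all genes called and 0.178% positive). The AKR1C1 and TXNRD1 calls were kept in all 12 fits without 1 library, and that of NQO1 in 4 of 12 (adjusted p 0.0107 to 0.109). AKR1C2 differed in the same direction as AKR1C1 between those groups (0.79 ± 0.15 SE, adjusted p = 0.00206). AKR1C3 (0.13 ± 0.17, nominal 95% interval -0.20 to 0.47) and HMOX1 (0.17 ± 0.24, -0.30 to 0.64) were not called. CD44 Low against parental called 0 of 10 by edgeR (1.06% of all genes) and 0 by DESeq2, with 2 at an unadjusted p under 0.05 (13.8% of all genes). CD44v6 against parental called 0 of 10 by edgeR (0.138% of all genes), with 3 at an unadjusted p under 0.05 (14.4% of all genes). DESeq2 called 2 there, AKR1C1 and TXNRD1.

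Among themselves, NQO1, AKR1C3 and HMOX1 ran closest. Over the 24 libraries centred by line, the nearest of the 10 to HMOX1 was AKR1C3 (root-mean-square difference 0.503 of HMOX1's own spread), the nearest to AKR1C3 was NQO1 (0.526) and the nearest to NQO1 was AKR1C3 (0.571). For each of the other 7 the nearest lay at 0.896 or above, close to or beyond its own spread. All of these values come from the same libraries and scaling, and they describe the pattern without a test.

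Other genes of the pathway were read from lists in CD44 High against CD44 Low. NFE2L2, which encodes NRF2, fell in both lines: its range was 95.2 to 96.7 CPM in J82 CD44 Low and 67.8 to 80.5 in CD44 High (log2 -0.38 ± 0.08 SE, adjusted p = 0.0062), and 117 to 131 against 82.7 to 101 CPM in RT-112 (-0.39 ± 0.11, adjusted p = 0.024). The J82 call was kept in all 6 fits without 1 library, and the RT-112 call in 2 of 6, ending without CD44 Low replicate 1 or 2 or CD44 High replicate 1 or 2 (adjusted p up to 0.0911). KEAP1, its adaptor for degradation, was not called, at 37.2 to 47.5 CPM over the CD44 Low and CD44 High libraries of J82 and 52.1 to 63.5 over those of RT-112. Of the 11 regulators and partners of NRF2, 2 rose and 2 fell in J82 (NFE2L1 and DPP3, BACH1 and NFE2L2), and 0 rose and 1 fell in RT-112, where 15.7% and 16.0% of all genes were called. Without 1 library these counts of 4 and 1 were 2 to 3 and 0 to 3.

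Of 25 other NRF2 targets tested in J82, 7 rose and 4 fell, beside 8.83% and 6.90% of all genes, with a median log2 fold change of 0.03. CBR3, a carbonyl reductase, rose by 1.67 on the log2 scale (adjusted p = 9.83e-05). In RT-112, 2 of 26 rose and 9 fell, beside 16.0% of all genes called and 7.02% lower, with a median of -0.02, and the count of 11 ran from 6 to 11 without 1 library. ALDH3A1, an aldehyde dehydrogenase, was at 61.0 to 72.3 CPM in CD44 Low and 18.7 to 28.0 in CD44 High there (log2 -1.57, adjusted p = 0.000497), and at 0 in all J82 libraries. Called in the same direction in both lines were EPHX1, the microsomal epoxide hydrolase (-1.21 and -1.03), TKT, transketolase (-0.36 and -0.29), SQSTM1, the autophagy receptor that binds KEAP1 (-0.23 and -0.52), and SLC48A1, a heme transporter (0.58 and 0.57). EPHX1 kept its call in all 6 fits without 1 library in both lines. SQSTM1 kept it in 1 of 6 in J82 (adjusted p up to 0.089) and 2 of 6 in RT-112 (up to 0.155), and in RT-112 TKT kept it in 3 of 6 (up to 0.0743) and SLC48A1 in 2 of 6 (up to 0.132).

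Glutathione synthesis, recycling and breakdown had 13 of 14 genes tested in each line, of which 2 rose and 3 fell both in J82 and in RT-112, where 15.7% and 16.0% of all genes were called. Without 1 library the 5 calls became 1 to 4 in J82 and 3 to 5 in RT-112. GSR, which returns oxidised glutathione to its reduced form, rose in J82 (60.0 to 67.0 CPM in CD44 Low, 79.0 to 90.4 in CD44 High, log2 0.42, adjusted p = 0.00446) and fell in RT-112 (93.5 to 105 against 71.4 to 77.0 CPM, log2 -0.37, adjusted p = 0.00816). The difference of these changes was 0.82 ± 0.11 SE (adjusted p = 7.42e-05), and both calls of GSR were kept in all 6 fits without 1 library. SLC7A5, which pairs with SLC3A2 to carry large neutral amino acids, fell in J82 (-0.69, adjusted p = 0.0444) and rose in RT-112 (0.41, adjusted p = 0.0194), with a difference of -1.06 ± 0.25 SE (adjusted p = 0.00865). The J82 call of SLC7A5 was kept in 0 of 6 fits without 1 library (adjusted p 0.053 to 0.17) and that of RT-112 in 3 of 6. CTH, which makes cysteine from cystathionine, fell by 0.75 on the log2 scale in J82 (adjusted p = 0.0159, kept in 4 of 6), and ABCC1, an exporter of glutathione conjugates, fell by 0.82 (adjusted p = 0.0437, kept in 1 of 6). In RT-112, IDH1, a cytosolic source of NADPH, fell by 0.83 (adjusted p = 0.00059) and CBS, which feeds CTH, fell by 0.72 (adjusted p = 0.0118).

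Of the peroxidases, thioredoxins and peroxiredoxins, 3 of 21 rose and 1 fell in J82 (15.7% of all genes called), and 0 rose and 1 fell in RT-112 (16.0%). Without 1 library there were 2 to 3 and 0 to 1 calls. TXNIP, the inhibitor of thioredoxin, was the gene that fell in both, by 0.82 (adjusted p = 0.000797) and by 0.68 (adjusted p = 0.0357, kept in 1 of 6 fits without 1 library) on the log2 scale. GLRX3, a glutaredoxin, rose by 0.54 in J82 (adjusted p = 0.00371). Of 16 ferroptosis and iron genes, 3 rose and 0 fell in J82, among them ACSL4, which loads polyunsaturated fatty acids into lipids (0.41, adjusted p = 0.013, kept in 5 of 6), and STEAP3, a ferrireductase (0.79, adjusted p = 0.00664). In RT-112, 1 rose and 3 fell. Beside the same shares of all genes, the counts of 3 and 4 ran from 2 to 4 and from 2 to 6 without 1 library. AIFM2, which keeps lipid peroxides down apart from GPX4, rose there by 1.36 (adjusted p = 0.0411, kept in 2 of 6), from 3.60 to 7.34 CPM in CD44 Low to 5.62 to 17.6 in CD44 High, with overlap. SAT1, which acetylates polyamines, fell by 0.86 in RT-112 (adjusted p = 0.00547) and was at 0.51 in J82 (adjusted p = 0.0812). FDFT1, squalene synthase, rose in J82 (0.33, adjusted p = 0.0344, kept in 1 of 6) and fell in RT-112 (-0.39, adjusted p = 0.0193, kept in 3 of 6).

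ATF4, the stress factor that also drives SLC7A11, and its targets were 0 higher and 2 lower of 14 in J82 CD44 High against CD44 Low (VLDLR and NUPR1; VLDLR -1.17, adjusted p = 0.00252), and 0 and 0 of 13 in RT-112. Against parental cells, 6 of 14 rose and 0 fell in J82 CD44 Low (5.34% of all genes called, 2.26% higher), and the median of the 14 log2 fold changes was 0.36 beside 0.00 over all genes. They were ATF3, CEBPB, VLDLR, NUPR1, TRIB3 and SESN2, named after their values were seen. ATF4 itself was not among them, at 187 to 213 CPM in parental and 208 to 250 in CD44 Low cells. Of the same list against parental cells, J82 CD44 High called 1 (CEBPB, higher, with 2.94% of all genes called). J82 CD44v6 called 2 (CEBPB and SESN2, higher, with 2.60%), and RT-112 CD44 Low 0 of 13 (3.20%). How these counts with parental cells hold without 1 library was not tested.

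**Figure D5:**
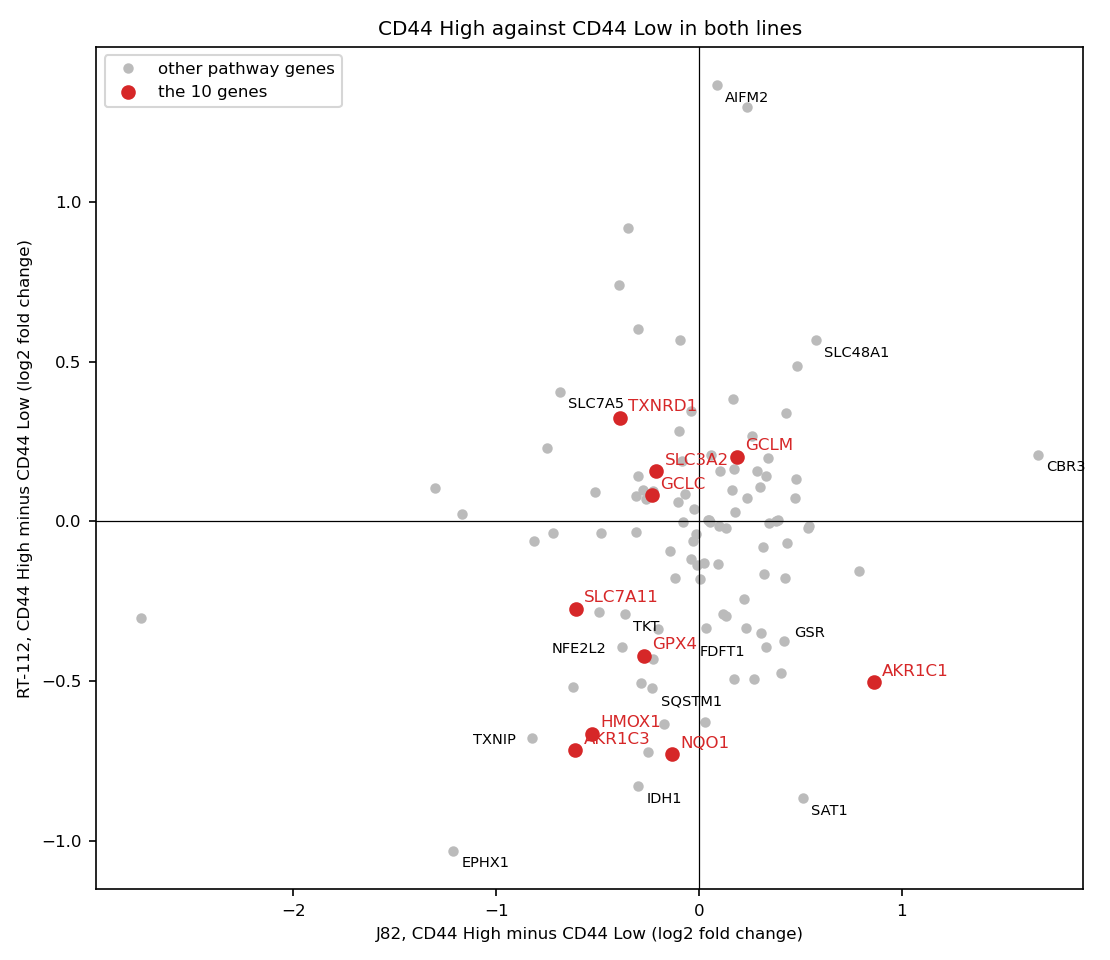
Log2 fold change of CD44 High minus CD44 Low in J82 (horizontal) and RT-112 (vertical) for the 10 genes (red) and for the other pathway genes tested in both lines (grey). Of the grey points, those called in both lines and CBR3, SAT1, AIFM2 and IDH1 are labelled. AKR1C3, HMOX1, EPHX1, TXNIP and NFE2L2 lie at lower left, AKR1C1 and GSR at lower right, and TXNRD1 and SLC7A5 at upper left.

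Markers of cell identity moved with the same groups. In J82 the summed level of 14 markers of other cell types was 1089 to 1345 CPM in CD44 Low and 562 to 600 in CD44 High, and most of it was COL3A1 (log2 -1.42, adjusted p = 4.05e-06). CD3E, CDH5, DCN, HBB and ALB were at 0 in both J82 groups. The macrophage marker CD68 rose there by 0.84 on the log2 scale (adjusted p = 0.0262, kept in 3 of 6 fits without 1 library). Of the 7 epithelial and urothelial markers tested in J82, KRT7 rose by 1.44 (adjusted p = 3.50e-05) and PPARG by 1.18 (adjusted p = 1.72e-05), while CDH1, the epithelial cadherin, fell by 3.47 (adjusted p = 1.89e-06). CDH1 was a low-level transcript there, with an average log2 CPM in J82 under 3, the minimum set for naming list genes. In RT-112 the summed level of the 12 epithelial and urothelial markers was 13263 to 15469 CPM in CD44 Low and 10710 to 12043 in CD44 High, and 2 of the 11 tested rose (KRT5 and EPCAM) and 5 fell (KRT7, KRT8, KRT19, PPARG and UPK1B). The part of these differences in the results for the 10 genes was not tested.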

How the data were processed

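The authors deposited raw counts per gene symbol for 24 libraries. The submitters' processing notes name HISAT2, StringTie and GRCh37; their versions, the annotation and whether counting used strand are not given in the sources used here. SLC7A11-AS1 overlaps SLC7A11 on the opposite strand and is listed separately, at 7 to 39 counts in J82 and 0 to 2 in RT-112. If counting ignored strand, reads of the shared stretch could not be told apart. Columns were matched to samples by name, and 0 were left unmatched. No pair of the 24 replicate pairs agreed within sampling noise (chi-square per degree of freedom 6.03 to 58.7).

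Genes were filtered with filterByExpr and scaled by TMM, and a quasi-likelihood F-test (edgeR 4.0.16, R 4.3.3) was fitted to the 12 libraries of each line (15951 genes in J82, 15645 in RT-112) or, between lines, to all 24 (17438 genes). Common biological coefficients of variation were 0.183, 0.152 and 0.170. Tests were two-sided, with Benjamini-Hochberg adjustment over all genes and a threshold of 0.05. Scripts were tested on simulated data. For spread and likeness, log2 CPM was computed at a prior count of 2. P-values measure the spread between the labelled biological replicates. Nominal 95% intervals are the log2 difference plus or minus the normal multiple of its SE. They make no allowance for the few libraries, so they are narrower than the test implies and may cover less than 95%. SLC7A11 in J82 CD44 Low against parental had an interval of 0.02 to 0.67 at an unadjusted p of 0.0579 (quasi-likelihood F-test).

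The 10 genes and the lists were chosen with earlier results of these data known. The text names those genes and CD44. From the lists it names genes called in both lines in CD44 High against CD44 Low and the 2 called genes per list and line with the largest change, at an average log2 CPM of at least 3. Other names were chosen after their values were seen. For the gene with the widest spread, it names the 5 nearest in pattern.

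Exon lengths and coding sequences came from GENCODE 29 (GRCh38) and promoters from RefSeq (GRCh38.p14), a build other than the authors', so no coordinate was converted. Length was found for 15990 of 17438 genes (91.7%). Replicate numbers carry no stated link between groups, and all main fits left them out. In 1 of 12 comparisons within a line, J82 CD44v6 against CD44 High, every same-number correlation was over 0.1. With a replicate block as an alternative fit, no call changed there. DESeq2 1.42.0, other scalings and filters, other sets of libraries, a replicate block and leaving out each library were alternatives. Figures used matplotlib 3.10.9 (Python 3.11.15).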

Additional observations from a re-analysis of the deposited data

Results flagged for a closer look

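The results listed here are those where the change in J82 and the change in RT-112 differed by a test of the difference itself (edgeR, all 24 libraries, adjusted over all genes). AKR1C1 differed in CD44 High against CD44 Low by 1.40 on the log2 scale (adjusted p = 3.91e-06), with all 3 J82 CD44 High libraries above and all 3 RT-112 CD44 High libraries below the CD44 Low libraries of their line. It also differed in CD44 High against parental by 0.94 (adjusted p = 0.0088), a comparison with the same CD44 High libraries. TXNRD1 differed in CD44 High against CD44 Low by -0.69 (adjusted p = 0.00937), with no overlap of groups in J82 and overlap in RT-112. NQO1 differed in that comparison by 0.63 (adjusted p = 0.0413), with overlap in J82 and none in RT-112.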

How the results depend on the processing

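Counts of the 10 genes called moved by more than 1.5 times under these alternatives. J82 CD44v6 against parental went from 1 to 0 with upper-quartile scaling, with no filter and with only the 6 libraries compared. With only those 6 libraries, J82 CD44 High against parental gave 2, J82 CD44v6 against CD44 Low gave 2 (TXNRD1 at an adjusted p of 0.0556), RT-112 CD44v6 against parental gave 1 (SLC7A11, 0.0341) and RT-112 CD44 High against CD44 Low gave 3. By DESeq2, 2 genes differed between lines for CD44v6 against parental (AKR1C1 at 0.62, adjusted p = 0.0108, and TXNRD1 at -0.58, 0.0279). With all 24 libraries in 1 fit, SLC7A11 in J82 CD44 High against CD44 Low had an adjusted p of 0.0846. The cause of these moves was not tested. No direction of a called value reversed.

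Without 1 library at a time, the counts ran in J82 from 0 to 1 for CD44 Low, 1 to 1 for CD44 High and 0 to 0 for CD44v6 against parental, 4 to 5 for CD44 High and 3 to 4 for CD44v6 against CD44 Low, and 0 to 0 for CD44v6 against CD44 High. In RT-112 they ran 0 to 4, 0 to 0, 0 to 0, 3 to 5, 3 to 5 and 0 to 1 in the same order. Between lines they ran 0 to 0 for CD44 Low, 1 to 1 for CD44 High and 0 to 0 for CD44v6 against parental, and 2 to 3 for CD44 High against CD44 Low, and for parental J82 against parental RT-112 8 to 9.

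With the replicate block, RT-112 CD44 Low against parental gave 0 calls (NQO1 at an adjusted p of 0.0547, AKR1C3 at 0.0691) and RT-112 CD44 High against CD44 Low gave 3 (GPX4 at 0.0516, HMOX1 at 0.0661). GPX4 was also lost in RT-112 CD44v6 against CD44 Low (0.0785), and NQO1 was gained in J82 CD44v6 against CD44 Low (-0.37, adjusted p = 0.0251). The block changed no other call of the 10 genes.

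Over all genes, DESeq2 called 1488 in place of 852 in J82 CD44 Low, 910 in place of 469 in CD44 High and 1061 in place of 415 in CD44v6 against parental, and in RT-112 985 in place of 500, 292 in place of 80 and 587 in place of 96. Between lines it called 536 in place of 185, 238 in place of 42 and 463 in place of 24 for the same groups. With only the 6 libraries the same 6 comparisons with parental cells gave 1501, 1350, 148, 1126, 43 and 953, J82 CD44v6 against CD44 Low 636 in place of 1528, and RT-112 CD44 High against CD44 Low 1171 in place of 2507. With no filter J82 and RT-112 CD44v6 against parental gave 253 and 60, and with all 24 libraries 740 and 237, beside 5 in J82 CD44v6 against CD44 High. The block gave 303 in RT-112 CD44 Low and 58 in CD44v6 against parental, and 24 between lines for CD44 High against parental, where a mean of at least 50 counts gave 69. In RT-112, SLC7A11 rests on 96 to 373 counts a library, which limits its precision.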
